A study of Mus musculus with 4 samples.

Results

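The clustered protocadherin genes were examined in mouse embryonic stem cells (ESCs) after knockdown of Cnot1. They were taken from the deposited table by symbol alone, without use of any measured value, as the genes of the Pcdh alpha, beta and gamma clusters, and numbered 58 of the 50559 genes listed. The alpha cluster had 14 genes (GRCm39 chromosome 18, 37063338 to 37321950), the beta cluster 22 (37398051 to 37654472) and the gamma cluster 22 (37794828 to 37974926), and all of them lay on the plus strand. Poly(A)+ RNA was sequenced from ESCs of the E14 line, which per the methods of the study carried a tdTomato reporter driven by the promoter of the endogenous retrovirus MERVL. The cells were grown with leukemia inhibitory factor at 1000 U/ml and transfected with a siRNA against Cnot1 (siCnot1) or with a non-targeting siRNA (siNT), in both groups at 150 nM, and RNA was collected 48 h later. Each group had 2 biological replicates, so the series held 4 libraries and 1 comparison. CNOT1 is the scaffold of CCR4-NOT, the complex that shortens poly(A) tails of mRNAs, and the study asked how its loss altered the transcriptome of ESCs.

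Clustered protocadherins are cell surface adhesion molecules of the cadherin superfamily, best known from neurons, where each cell expresses its own combination of them and cells recognise one another through matching combinations. In the alpha and gamma clusters each gene has its own promoter and its own large first exon, which encodes the extracellular part, and that exon is spliced to constant exons used by the whole cluster. Beta genes have a single coding exon each and no constant exons. Promoter choice depends on DNA methylation, on CTCF and cohesin, which fold promoters toward distant enhancers, and on the silencing protein SMCHD1. C-type genes, namely Pcdhac1, Pcdhac2, Pcdhgc3, Pcdhgc4 and Pcdhgc5, lie at the 3′ ends of the alpha and gamma clusters and are less subject to this random choice.

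The 4 libraries held between 32135824 and 32557440 counts on genes, and the groups overlapped in depth. Levels are given as normalized CPM, the counts of a gene relative to the library total after TMM scaling by edgeR. Cnot1 fell from 949 ± 51.7 to 188 ± 5.14 CPM (mean ± SD, n = 2 each). Of 9 ESC markers 7 fell, against 14.7% of all genes tested, a share that is not matched for level. When library totals replaced TMM scaling 4 fell, against 8.64% of all genes tested. With TMM scaling the falls were of at most 0.45 on the log2 scale, and Pou5f1 and Nanog remained at 903 ± 37.5 and 968 ± 36.3 CPM in siCnot1. Markers of 2-cell-like (2C-like) cells, the small fraction of an ESC culture that resembles the 2-cell embryo, summed to 75.8 and 74.0 CPM in siNT and to 195 and 202 CPM in siCnot1. Neural markers summed to 628 and 608 CPM in siNT and to 589 and 596 CPM in siCnot1. Much of that sum was Stmn2, at 312 ± 1.75 CPM in siNT and 266 ± 10.8 CPM in siCnot1. Gene by gene, 7 of the 13 tested neural markers had a log2 fold change above 0, and the median was 0.08. In bulk RNA, fewer cells of a type and less RNA per cell cannot be told apart.

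Nearly all counts assigned to the family lay on the gamma cluster. Its 22 genes received 1705 and 1673 counts in siNT against 2769 and 2820 in siCnot1. The 14 alpha genes together received 4 and 8 counts in siNT against 16 and 26 in siCnot1. The 22 beta genes received 11 and 14 counts in siNT and 31 and 24 in siCnot1. All 22 gamma genes had counts in each library, against 1 alpha gene and 2 beta genes. At the other end, 11 alpha and 9 beta genes had 0 counts in all 4 libraries. At this depth 0 counts allow a level of up to 0.184 to 0.187 CPM, that of 3 read pairs or 6 counts per library, since both mates of a pair appear to be counted (counting error only).

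These counts stand for the first exons. Besides longer 3′ stretches shared by many members, 2 exons with 148 bases in all had the same coordinates in every alpha gene, and 2 other exons of the same total length were shared by every gamma gene. Of the alpha genes, 11 had 0 counts while Pcdhac2 had counts in each library, so reads on the constant exons had not been assigned to every member. The exon bases that no other listed gene overlapped ran from 2499 to 2961 per gamma gene. Pcdha4, Pcdha6 and Pcdha7 are an exception, since the read-through loci Gm37013, Gm38666 and Gm38667 covered their first exons in the annotation. Pcdha4 and Pcdha7 had no unshared exon base, so their 0 counts set no limit on their level, and those of Pcdha6 speak only for 1240 unshared bases at its 3′ end.

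In siCnot1 the summed gamma cluster was 1.54-fold higher than in siNT. The sum reached 54.8 and 53.3 normalized CPM in siNT, compared with 82.6 and 84.2 CPM in siCnot1. The groups stood well apart relative to their spread, with means of 54.0 ± 1.03 and 83.4 ± 1.14 CPM (SD, n = 2). The log2 fold change was 0.63 (SE 0.07, 95% interval of the fold 1.39 to 1.71), and the quasi-likelihood test of edgeR gave an adjusted p of 5.42e-07 (Benjamini-Hochberg, over 18125 tested genes and sums). The sum over the gamma cluster without Pcdhgc3, its most abundant gene, gave a log2 fold change of 0.57 (SE 0.09, adjusted p = 2.23e-05, edgeR), so the rise did not rest on that gene. Separate sums over the subfamilies also rose, by 0.57 on the log2 scale for the 12 gamma A genes (SE 0.10), by 0.52 for the 7 gamma B genes (SE 0.15) and by 0.73 for the 3 gamma C genes (SE 0.10). The corresponding adjusted p values were 1.34e-04, 0.00955 and 5.24e-06 (edgeR). The subfamily sums and the sum without Pcdhgc3 were chosen after the data were seen.

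**Figure D1:**
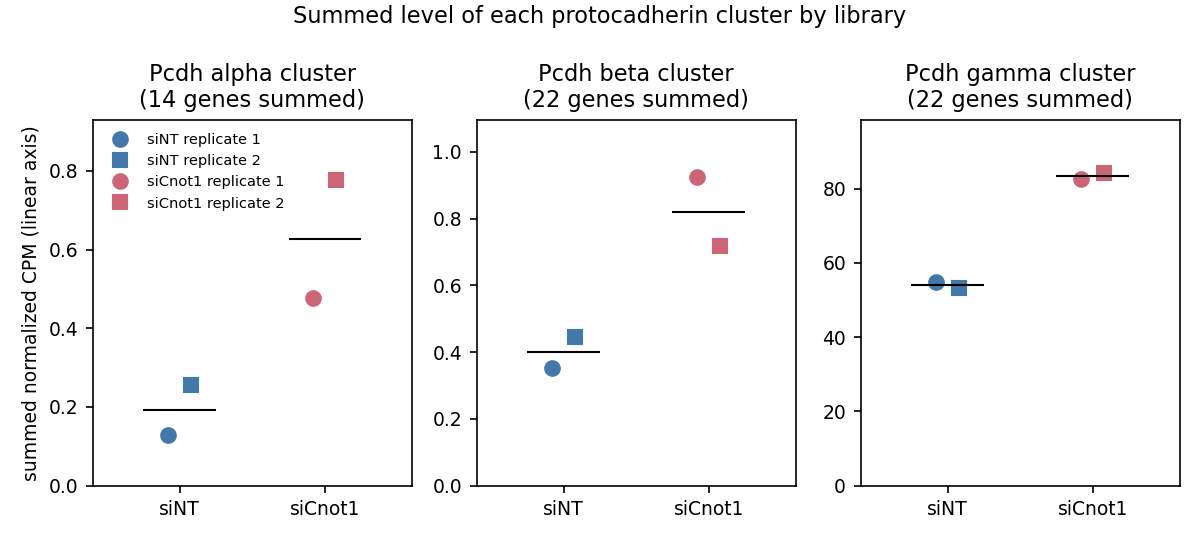
Summed normalized CPM of the alpha, beta and gamma clusters (vertical axes, linear from 0, a separate scale for each cluster) in siNT (blue) and siCnot1 (red), with circles for replicate 1, squares for replicate 2 and a line at each group mean. The gamma sum lay at 53.3 to 54.8 CPM in siNT and at 82.6 to 84.2 CPM in siCnot1, while the alpha and beta sums stayed under 1 CPM in all 4 libraries.

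Levels of different genes were compared as normalized CPM per kb of unshared exon. Pcdhgc3 led the family, at 7.52 and 7.37 CPM per kb in siNT and 12.3 and 12.4 in siCnot1. Among 17957 tested genes with at least 200 unshared exon bases, its siNT level lay at percentile 63.1, and the median gene stood at 3.43 CPM per kb. Of the clustered protocadherins with unshared exon bases, Pcdhgc3 alone stood above the median gene in siNT. Pcdhga11 followed at 2.32 ± 0.0995 CPM per kb in siNT (SD, n = 2) and Pcdhga12 at 2.10 ± 0.332, and these neighbours in the order did not differ beyond their spread. Pcdhgb8 stood at 1.19 ± 0.139 and Pcdhga1 at 0.976 ± 0.197 CPM per kb, whose replicate ranges overlapped. Pcdhga1 ranked 5 of the 22 gamma genes in siNT and 3 in siCnot1, where it reached 2.67 ± 0.653 CPM per kb. Pcdhga6 had the lowest gamma level, at 0.0377 ± 0.0179 CPM per kb in siNT, with 4 and 2 counts in siNT and 4 and 6 in siCnot1.

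**Figure D2:**
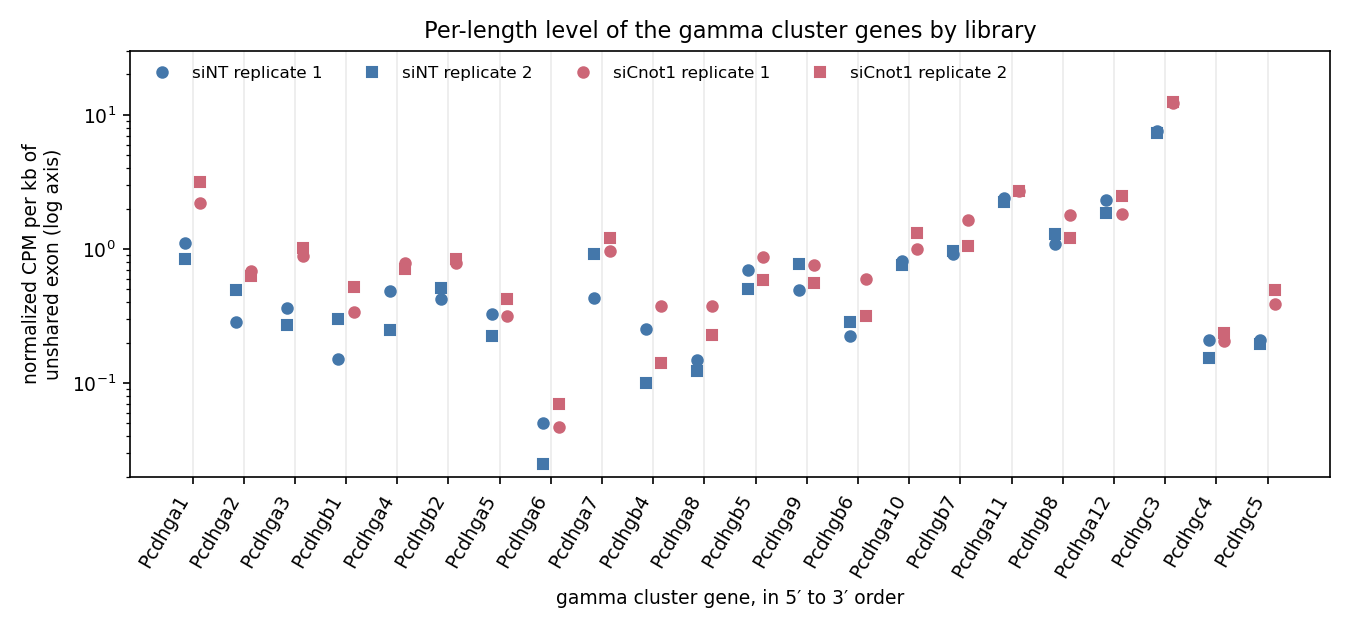
Level of each gamma cluster gene as normalized CPM per kb of unshared exon (vertical axis, log scale) in 5′ to 3′ order (horizontal axis), with siNT in blue, siCnot1 in red, circles for replicate 1 and squares for replicate 2. Pcdhgc3 is the highest in each library and Pcdhga6 the lowest, and at Pcdhga1 and Pcdhga3 both siCnot1 points lie above both siNT points.

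Among single genes, 22 had enough counts to be tested, namely Pcdhac2 and all gamma genes except Pcdhga6. Pcdhac2 is the one tested member that passed the filter on low counts through the siCnot1 libraries alone, so it could enter the test only by being higher there, and the counts that follow leave it out. Pcdhga8 and Pcdhgb4, which are kept, reached the filter in 1 siNT library and 2 siCnot1 libraries, so their entry relied in part on siCnot1. Of the 21 tested gamma genes, 4 rose at an adjusted p under 0.05 (Pcdhga1, Pcdhga3, Pcdhga4 and Pcdhgc3), and none fell by edgeR, DESeq2 or limma-voom, with 0 below a log2 fold change of 0. Of all 18144 genes tested, 15.0% rose and 14.7% fell, so the share of gamma genes that rose (19.0%) was near that of the transcriptome. The study's methods set a threshold of an unadjusted p of at most 0.05 and a log2 fold change of at least 1, with DESeq2. Applied here to edgeR, 4 of the 21 were higher (Pcdhga1, Pcdhga3, Pcdhga4 and Pcdhgc5) and 0 lower, against 6.18% and 1.80% of all genes tested. With DESeq2, Pcdhga1, Pcdhga3 and Pcdhga4 met the threshold and Pcdhgc5 missed it (unadjusted p = 0.0743, DESeq2). Both siCnot1 libraries exceeded both siNT libraries for 14 of the 21 tested gamma genes, compared with 32.7% of all genes tested. The log2 fold change was above 0 for all 21, with a median of 0.69, while 9264 of the 18144 genes tested were above 0 and the median of all tested was 0.01. Among the 9247 genes in the range of mean level of the tested gamma genes (0.553 to 25.4 CPM), the median was 0.09, and 17.2% rose and 7.49% fell. With no filter on low counts, which brings in Pcdhga6, all 22 gamma genes lay above 0.

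Pcdhgc3, a C-type gene with broad expression outside the variable choice (start 37939463), had the smallest adjusted p of the family. It had 19.3 and 18.9 CPM in siNT and reached 31.5 and 31.9 CPM in siCnot1, with no overlap and little spread in either group. Its log2 fold change was 0.73 (SE 0.10, adjusted p = 6.98e-06, edgeR with Benjamini-Hochberg adjustment). As a share of all gamma counts, Pcdhgc3 took 35.2% (exact 95% binomial interval 33.0 to 37.6) and 35.5% (33.2 to 37.9) in siNT and 38.1% (36.3 to 40.0) and 37.9% (36.1 to 39.8) in siCnot1. The intervals of the groups overlapped. They cover counting error only and are too narrow where both mates of a pair were counted.

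Pcdhga1, the first gene of the gamma cluster (start 37794828), rose from 2.89 and 2.17 CPM in siNT to 5.73 and 8.12 CPM in siCnot1. The siCnot1 replicates differed from each other by more than the siNT replicates did, yet the groups did not overlap. The log2 fold change was 1.45 (SE 0.23, adjusted p = 4.03e-05, edgeR). It took 5.28% and 4.06% of the gamma counts in siNT, compared with 6.93% and 9.65% in siCnot1.

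Pcdhga3, another gamma A gene near the 5′ end (start 37807388), stood at 0.931 and 0.701 CPM in siNT and at 2.30 and 2.60 CPM in siCnot1. The ranges of the groups were far apart, and the log2 fold change was 1.58 (SE 0.35, adjusted p = 0.00147, edgeR). Pcdhga4 (start 37818290) stood at 1.25 and 0.638 CPM in siNT and at 2.03 and 1.82 CPM in siCnot1. Here the siNT replicates were widely spread, and the log2 fold change of 1.02 (SE 0.38) passed narrowly, at an adjusted p of 0.0477 (edgeR). Without siNT replicate 2, 3 of these calls were lost, with adjusted p of 0.0522 for Pcdhga1, 0.0640 for Pcdhga3 and 0.303 for Pcdhga4, while Pcdhgc3 kept an adjusted p of 0.0192 (edgeR). The call of Pcdhga4 was also lost without any other single library (adjusted p from 0.0715 to 0.239) and with DESeq2 (0.134).

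The remaining C-type genes of the gamma cluster were scarce. Pcdhgc5, at the 3′ end of the cluster, had 17 and 16 counts in siNT and 34 and 43 in siCnot1, and its log2 fold change of 1.12 (SE 0.48) had an adjusted p of 0.0875 (edgeR). The groups of Pcdhgc5 did not overlap, but at this depth its interval ran from 0.11 to 2.12. Pcdhgc4, a gene required for the survival of certain neurons, had 19 and 14 counts in siNT and 20 and 23 in siCnot1. Its log2 fold change was 0.28 (95% interval −0.87 to 1.43, adjusted p = 0.760, edgeR), so no difference was detectable at this depth.

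The abundant variable genes at the 3′ end of the gamma A and B array did not pass the test. Pcdhga11 had 6.20 and 5.83 CPM in siNT and 7.01 and 6.99 CPM in siCnot1 (log2 fold change 0.22, 95% interval −0.14 to 0.58, adjusted p = 0.383, edgeR). Pcdhga12 had 6.90 and 5.51 CPM in siNT and 5.43 and 7.40 CPM in siCnot1, so the siNT range lay within the siCnot1 range. Its log2 fold change was 0.05 (95% interval −0.35 to 0.45, adjusted p = 0.890, edgeR), an interval that lay below the log2 fold change of the gamma sum. Pcdhgb8 had 2.73 and 3.22 CPM in siNT and 4.47 and 3.02 CPM in siCnot1 (log2 fold change 0.33, 95% interval −0.20 to 0.86, adjusted p = 0.365, edgeR). The 12 other tested gamma genes, none of which passed the adjusted threshold by edgeR with TMM scaling, had log2 fold changes from 0.06 for Pcdhga9 to 1.16 for Pcdhga8. Of these, 2 genes, Pcdhgb2 and Pcdhga7, had an unadjusted p under 0.05 by edgeR.

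**Figure D3:**
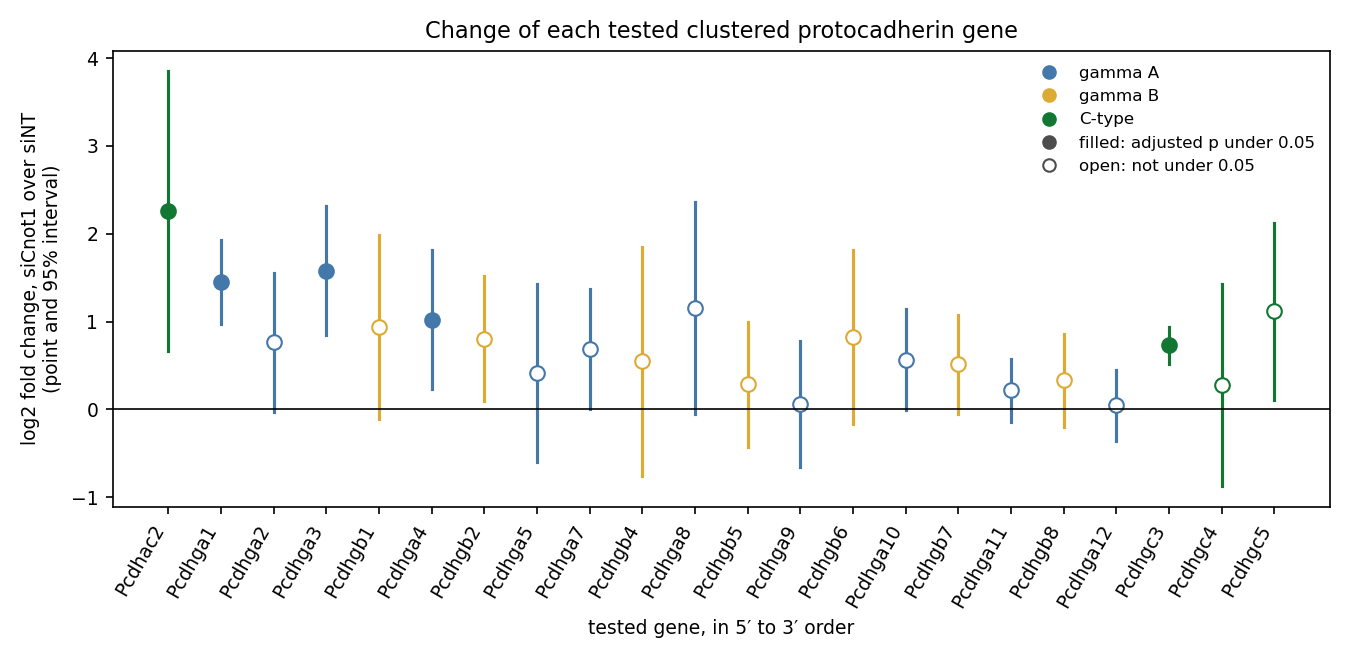
Log2 fold change of siCnot1 over siNT (vertical axis) for the 22 tested clustered protocadherin genes in 5′ to 3′ order (horizontal axis), with 95% intervals from edgeR. Filled points passed an adjusted p under 0.05, colours give the gamma A, gamma B and C-type genes, and the points run from 0.05 for Pcdhga12 to 2.26 for Pcdhac2 with none below 0.

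Along the gamma A and B array the estimated changes were larger toward the 5′ end. Spearman's rho between the position of a gene in the cluster and its log2 fold change was −0.73 over the 18 tested gamma A and B genes, −0.78 over the 11 gamma A genes and −0.61 over the 7 gamma B genes. This pattern was noticed in these data and is given as a description across genes of the same 4 libraries, which are not independent replicates. The siNT level and the log2 fold change of the 21 tested gamma genes were related with a rho of −0.41. Both values use the siNT counts, so noise in these counts alone can make that rho negative. Level and position had a rho of 0.49 over the 18 gamma A and B genes, so level and position moved together. The part of the level in the pattern was not tested. The array ended with Pcdhga12, next to the C-type gene Pcdhgc3, which passed the test.

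The composition of the gamma counts varied within groups as well. Gamma A genes took 45.2% and 43.9% of them in siNT and 40.2% and 45.6% in siCnot1, so the groups overlapped. Gamma B genes took 17.5% and 18.8% in siNT and 19.7% and 14.1% in siCnot1, again with overlap. The C-type genes, mostly Pcdhgc3, took 37.4% and 37.3% in siNT and 40.1% and 40.3% in siCnot1. In the siCnot1 replicates the gamma B sum stood at 16.3 and 11.9 CPM and the gamma A sum at 33.2 and 38.4 CPM, with the higher value in different replicates.

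In the alpha cluster, Pcdha4 and Pcdha7 could not be judged, having no unshared exon base, and Pcdha6 only at its 3′ end. The other alpha genes were close to silent, and most alpha counts over the 4 libraries were those of Pcdhac2. This C-type gene at the 3′ end of the cluster (start 37276731) had 2 and 6 counts in siNT and 16 and 26 in siCnot1, or 0.128 ± 0.0898 and 0.627 ± 0.211 CPM (SD, n = 2). Its log2 fold change was 2.26 (SE 0.77, 95% interval 0.67 to 3.85, adjusted p = 0.0286, edgeR), and the groups did not overlap. The gene passed the filter on low counts through its siCnot1 libraries alone, so this test is no independent support for its direction. The call was lost with DESeq2 (adjusted p = 0.0870) and without any single library (adjusted p from 0.100 to 0.276, edgeR), and the log2 fold change moved to 3.21 without siNT replicate 2 and to 1.69 without siNT replicate 1. The other C-type gene, Pcdhac1, had 0 counts in all 4 libraries. Of the variable alpha genes, Pcdha9 had 2 counts in siNT replicate 2 and Pcdha12 had 2 counts in siNT replicate 1, and neither had any in siCnot1. The alpha sum had a log2 fold change of 1.69 (SE 0.70) and an adjusted p of 0.0737 (edgeR), so it did not pass.

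In the beta cluster 13 of the 22 genes had any count and none had more than 8 in a library. Pcdhb22, the last gene of the cluster, had 4 and 1 counts in siNT and 4 and 6 in siCnot1, and Pcdhb20 had 2 in each library. Pcdhb8 had 1 and 4 counts in siNT and 0 in both siCnot1 libraries. Pcdhb17 had 2 and 1 counts in siNT and 0 and 4 in siCnot1, while Pcdhb21 had 0 and 2 in siNT and 8 and 0 in siCnot1. No beta gene passed the filter on low counts, so single beta genes are given by their counts alone. The beta sum amounted to 0.353 and 0.446 CPM in siNT, compared with 0.925 and 0.717 CPM in siCnot1, so both siCnot1 libraries lay above both siNT libraries. The difference did not pass the test (log2 fold change 1.03, SE 0.56, adjusted p = 0.177, edgeR).

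Among the genes known to control these promoters, more fell than rose, all by small amounts. Of 28 chromatin regulators, all tested, 16 fell and 2 rose, with a median log2 fold change of −0.21, while 14.7% of all genes tested fell and 15.0% rose. These shares are not matched for level. Among 9247 genes with a mean of 0.553 to 25.4 CPM, 7.49% fell, so the share that fell differed with level. Most of the 28 regulators stood above that range, and no share was computed for genes at their level. Rad21 and Smc3, core subunits of cohesin, fell by 0.32 (SE 0.05, adjusted p = 8.40e-05, edgeR) and by 0.30 (SE 0.06, adjusted p = 2.30e-04, edgeR) on the log2 scale. Pds5a, a cohesin regulator, fell by 0.31, and Ehmt2, a histone H3K9 methyltransferase, fell by 0.35. Cbx5, which encodes the heterochromatin protein HP1 alpha, fell by 0.26. Dnmt3b, the de novo DNA methyltransferase that acts at clustered protocadherin promoters, went from 87.6 ± 5.55 to 70.6 ± 0.329 CPM (log2 fold change −0.31, SE 0.07, adjusted p = 0.00159, edgeR), and its cofactor Dnmt3l fell by 0.35. The genes that rose were Mau2, which loads cohesin, and Atf7ip, a partner of SETDB1, by 0.29 and 0.23 on the log2 scale. Ctcf had a log2 fold change of −0.12 (adjusted p = 0.118), Wapl, the cohesin release factor, of −0.15 (adjusted p = 0.0675) and Smchd1 of −0.06 (adjusted p = 0.491), and none of these passed (edgeR). When library totals replaced TMM scaling, which moved the median of all genes tested from 0.01 to 0.12 on the log2 scale, 7 of these regulators fell and 3 rose, and 22.0% of all genes tested rose and 8.64% fell.

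Of 18 binding partners and proteases of protocadherins, 3 rose and the others did not pass, a count near the 15.0% of all genes tested that rose. Ncstn and Psen2, parts of the gamma-secretase that cleaves protocadherins in the membrane, rose by 0.40 (adjusted p = 3.33e-04) and by 0.56 (adjusted p = 0.0438) on the log2 scale, and Ptk2b, a kinase bound by the constant domains, rose by 0.40 (adjusted p = 0.0204, edgeR).

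Of 12 non-clustered protocadherins, which are encoded singly outside the clusters (Pcdh1 and Pcdh12 lie within 500 kb of them), 3 had enough counts to be tested. Pcdh8 had 4 and 2 counts in siNT and 30 and 34 in siCnot1 (log2 fold change 3.26, SE 0.70, adjusted p = 0.00103, edgeR). Pcdh8 passed the filter on low counts through its siCnot1 libraries alone, so this test is no independent support for its direction. Pcdh19 had 57 and 39 counts in siNT and 101 and 123 in siCnot1 (log2 fold change 1.12, SE 0.29, adjusted p = 0.00545, edgeR). Pcdh1 was lower, at 13.6 ± 1.01 CPM in siNT and 7.61 ± 0.290 CPM in siCnot1 (log2 fold change −0.83, SE 0.14, adjusted p = 9.25e-05, edgeR). Of 9 tested classical cadherins and catenins, Cdh2, the neural cadherin, rose by 1.84 on the log2 scale (SE 0.24, adjusted p = 3.30e-06, edgeR) from 55 and 54 counts in siNT to 236 and 183 in siCnot1. Cdh1, the main cadherin of ESCs, fell by 0.37 on the log2 scale (SE 0.05, adjusted p = 1.36e-05, edgeR). Cdh6, with 2 and 0 counts in siNT and 12 and 15 in siCnot1, rose as well (adjusted p = 0.0158, edgeR). Cdh6 too passed the filter on low counts through siCnot1 alone, so its test is no independent support for its direction. Ctnna1, Ctnnb1 and Jup fell by 0.21, 0.23 and 0.19 on the log2 scale. In all, 2 genes of this list rose and 4 fell, against 15.0% and 14.7% of all genes tested. With library totals in place of TMM, 4 were called higher and 1 lower, against 22.0% and 8.64% of all genes tested.

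The genes around the clusters moved in both directions. Within 500 kb of the outermost members, 60 other genes are listed and 32 were tested, of which 2 rose and 8 fell (15.0% and 14.7% of all genes tested), with a median log2 fold change of −0.10. By library totals 2 rose and 4 fell (22.0% and 8.64% of all genes tested), and the median was 0.01. Taf7, a subunit of the general transcription factor TFIID that lies between the beta and gamma clusters on the opposite strand, went from 182 ± 4.94 to 171 ± 0.883 CPM (log2 fold change −0.10, adjusted p = 0.230, edgeR). Diaph1, an actin nucleator, rose by 0.26 (adjusted p = 0.00113) and Slc4a9, a transporter, by 1.09 (adjusted p = 0.0430, edgeR) on the log2 scale. Ik and Gnpda1 fell by 0.33 and 0.34 and Arap3, a regulator of small GTPases, by 0.90, and Pcdh1 is one of the genes of this list that fell.

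Markers of cell types in which clustered protocadherins could be expressed moved in both directions. Of 13 tested neural markers, Tubb3, Elavl3 and Gap43 rose, by 0.77, 1.31 and 0.69 on the log2 scale, and Nefm, Stmn2 and Pax6 fell by 0.63, 0.23 and 0.80, counts that compare with 15.0% and 14.7% of all genes tested. The other neural markers did not pass the test or were not tested, and Dcx, a marker of young neurons, had 0 counts in all 4 libraries. Scaled by library totals, 3 neural markers rose and 2 fell, against 22.0% and 8.64% of all genes tested. The median log2 fold change of the list was then 0.18, and 9 of the 13 lay above 0. Of 9 tested 2C-like markers 7 rose, against 15.0% of all genes tested, with a median log2 fold change of 1.33. Among the 7, Tcstv1 had 1 and 2 counts in siNT and 11 in each siCnot1 library. It passed the filter on low counts through siCnot1 alone. Of 4 tested fibroblast markers 2 rose, Col1a1 from 1.39 ± 0.196 to 3.69 ± 0.319 CPM and Pdgfra from 3.41 ± 0.0859 to 6.89 ± 0.839 CPM, whereas Dcn and Col3a1 were at 0 in all 4 libraries. Of 4 tested trophectoderm markers Krt8 and Krt18 fell by 1.05 and 1.17, while Cdx2 and Eomes, with log2 fold changes of 0.74 and 0.13, did not pass. Of 4 tested primitive endoderm markers Dab2 rose by 1.02 on the log2 scale and the others did not pass. The part of any of these cell types in the gamma result was not tested.

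**Figure D4:**
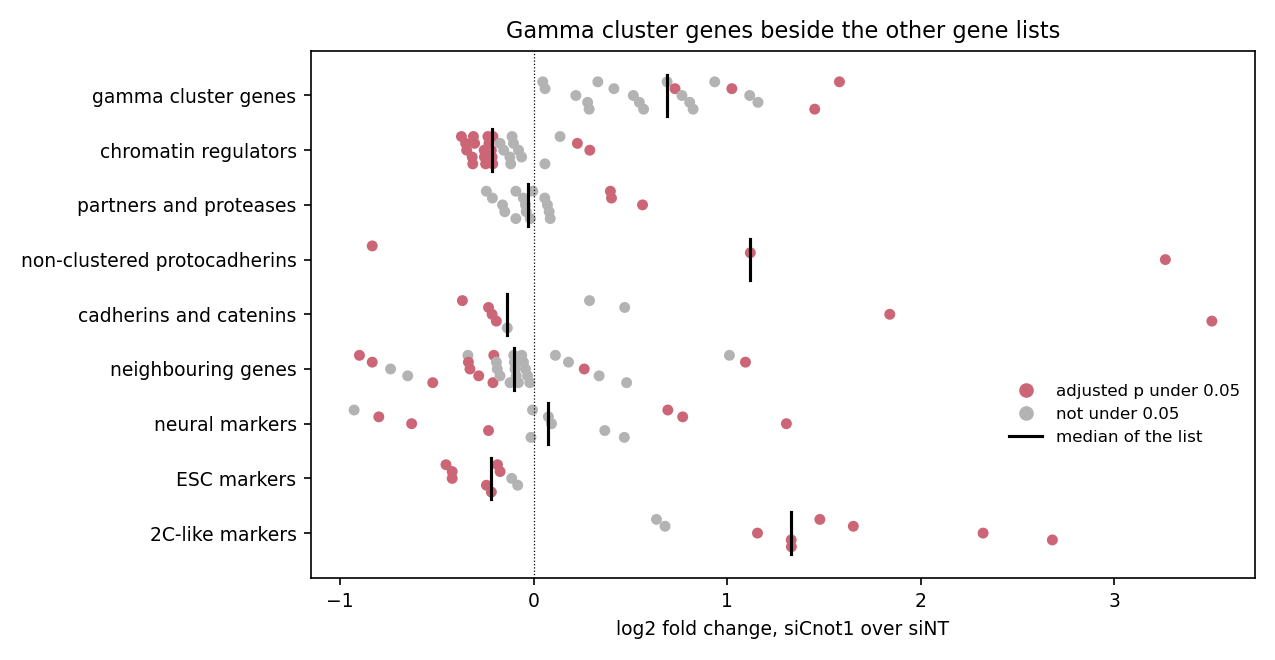
Log2 fold change of siCnot1 over siNT (horizontal axis) for each tested gene of 9 lists (rows), with red points for an adjusted p under 0.05 in edgeR, grey points for the others and a black line at the median of each list. The gamma cluster genes all lie right of 0 with a median of 0.69, the chromatin regulators have a median of −0.21 and the neighbouring genes a median of −0.10.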

How the data were processed

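Per the labels and the methods, the authors made dUTP-stranded poly(A)+ libraries, sequenced paired reads on an Illumina NovaSeq instrument and deposited raw counts per gene, unnormalized, for each replicate. The submitters' notes list fastp 0.19.4, HISAT2 2.2.1, DESeq2 1.40.2 and mm10 with no role given. The table has the layout of featureCounts, and 0 of the 58 members started at their GRCm38 position, while scaffold names were those of GRCm39, so positions are given as GRCm39. Whether counting used strand is not stated. In siNT replicate 1, 2051 genes had 2 counts and 1173 had 1, a pattern also found in the other libraries, so both mates of a pair appear to be counted and a count is less than a fragment. The study lists several siRNAs against Cnot1, and the one used here is not stated.

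Genes passing filterByExpr (minimum count 10) were fitted with edgeR 4.0.16 (TMM, group as the term, R 4.3.3). SEs were derived from the F statistic (absolute log2 fold change over its root). For cluster sums, members were replaced by their summed counts before filtering. Unshared bases come from the deposited exon positions. Of 150-base stretches outside the shared 3′ part, read from GENCODE M21 transcripts for 57 members matched by name, at most 5.91% per gene occurred in another member, so reads on first exons were mostly assignable. Alternatives were other scalings and filters, DESeq2 1.42.0, limma-voom (limma 3.58.1), a replicate block, leaving out each library, and, added after the data were seen, counts divided by 2. The fits were tested on simulated data.

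The members and lists were chosen with earlier results of these data known. Named were the members with an adjusted p under 0.05, the 5 highest per length in siNT in each cluster, the C-type genes, and per list up to 6 genes with the smallest p plus Smchd1, Ctcf, Rad21, Dnmt3b and Wapl. Mau2, Atf7ip, Slc4a9, Taf7, Pcdhgb2, Pcdhga7, Pcdhga8, Pcdhga9 and genes at 0 were named after their values were seen. No sequence is printed.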

Additional observations from a re-analysis of the deposited data

How the results depend on the processing

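The rise of the gamma sum (log2 fold change 0.61 to 0.73) and that of Pcdhgc3 (0.71 to 0.84) passed the threshold under each alternative run. With 5 members higher as analysed, Pcdhac2 included, 3 were called with no filter on low counts, 3 with DESeq2 (Pcdhgc3, Pcdhga1 and Pcdhga3 in both) and from 1 to 3 when a library was left out, where the lone library of a group is assumed to vary like the others and the share of all genes called higher dropped to between 3.83% and 7.51%. At the study's threshold the count ran from 3 to 6 when a library was left out. With library totals 6 members were called higher, Pcdhgb2 in addition to the 5 as analysed, while 22.0% of all genes tested were called higher. No member was called lower in these runs. Without a library, 18 to 20 of the 21 tested gamma genes stayed above 0, and the log2 fold change of Pcdhga12 ran from −0.20 to 0.25, turning to −0.11 without siNT replicate 2 and to −0.20 without siCnot1 replicate 2. Summing only tested members left Pcdhac2 alone in the alpha sum, which then passed (2.26, adjusted p = 0.0283, edgeR). Pcdhgc5 passed when at least 1 CPM in 2 libraries was required (adjusted p = 0.0332, edgeR), where fewer genes were tested. Per kb of all exon bases, Pcdhgc3 stood at 4.08 CPM in siNT. With the replicate number as a replicate block, 5 members were higher and the gamma sum changed by 0.63 (adjusted p = 1.58e-05, edgeR). Libraries with the same number did not deviate together (r = −0.01 across genes). With 2 libraries per group, this cannot exclude a pairing or a shared batch. With counts divided by 2, Pcdhac2 and the alpha sum no longer passed the filter on low counts. No value is given for the alpha and beta sums under the filter of 1 CPM, which they missed. Depth limits the alpha and beta clusters, where most genes had fewer than 3 counts per library.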
